A study of Mus musculus with 6 samples.

Results

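Cohesin is a ring-shaped protein complex that holds sister chromatids together from DNA replication until anaphase. The 10 genes described here are 5 genes of the cohesin ring (Smc1a, Smc3, Rad21, Stag1 and Stag2) and 5 genes whose products act on the ring, called regulators below. Among the regulators, the product of Esco2 acts during DNA replication, and those of Sgo1, Sgo2a, Espl1 and Pttg1 act around mitosis. All 10 genes were chosen by gene symbol from the platform annotation, each had 1 probe set of its own, and together they make 10 of the 19938 genes measured. The cells came from dissociated livers of 3 weaned mice, 3.5 weeks old, of a CyclinB1-GFP transgenic strain whose reporter is named after a cyclin that accumulates before mitosis. The labels do not name the reporter's promoter. Cell sorting gave a GFP-positive fraction, labelled as replicating, and a GFP-negative fraction of the same transgenic mice, labelled as quiescent, with 3 arrays each.

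In the ring, SMC1A and SMC3 are long coiled-coil ATPases that meet at a hinge, RAD21 closes the gap between their heads, and STAG1 or STAG2 binds RAD21. ESCO2 acetylates SMC3 during DNA replication, which makes the ring cohesive. In early mitosis much cohesin leaves the chromosome arms, while the shugoshins SGO1 and SGO2 keep it at centromeres. At anaphase the protease separase, encoded by Espl1, cuts RAD21 once its inhibitor securin, encoded by Pttg1, has been destroyed by the anaphase-promoting complex (APC/C).

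All values below are log2 of the deposited probe set intensities. A difference subtracts the GFP-negative mean, its ± is the SE of the limma fit, and p-values were adjusted by the Benjamini-Hochberg method over all 19938 genes, so a gene is said to have risen or fallen where its adjusted p was below 0.05. Array medians over all probe sets lay between 4.60 and 4.74, and a level below them is read as not above background, so that a fold against it is given as a lower bound with values raised to the array's median. A probe set's level is not comparable with another probe set's, so only differences between groups are set side by side. In sorted bulk RNA, fewer cells of a kind and less RNA per cell cannot be told apart. Since the sort used a reporter named after a mitotic cyclin, higher mitotic transcripts in GFP-positive cells were built into the comparison. Hepatocyte markers stood at high levels in both fractions, and the log2 of the summed intensity of 7 of them lay between 15.35 and 15.42 in GFP-positive and between 15.44 and 15.55 in GFP-negative arrays. Of 45 measured markers of 7 other cell types, Clec4f, a Kupffer cell receptor gene, fell (-0.68 ± 0.13, limma adjusted p = 0.032, or 0.077 with the replicate number as a block) and none rose by limma, 0 at an unadjusted p below 0.05. The summed lists of 4 of these types lay lower in all GFP-positive arrays: 8 Kupffer cell markers at 7.22 to 7.33 against 7.36 to 7.80, 8 sinusoidal endothelial markers at 8.19 to 8.23 against 8.35 to 8.72, 8 stellate cell markers at 7.94 to 8.16 against 8.39 to 8.596, and 4 erythroid markers at 7.47 to 8.15 against 8.39 to 8.50. The summed hepatocyte list, given above, also lay lower in all GFP-positive arrays. The share of all genes lying lower in every GFP-positive array was not counted. The cholangiocyte, lymphoid and neutrophil lists overlapped between groups. Mean levels over the 6 arrays lay below all array medians for 6 of 8 Kupffer cell, 3 of 8 stellate cell and 2 of 4 erythroid markers. The same held for 3 of 5 cholangiocyte, 5 of 6 lymphoid and 4 of 6 neutrophil markers, and for 0 of 8 sinusoidal endothelial markers. Such levels are read as not above background. The part of these cell types in the differences below was not tested.

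Promoter windows from RefSeq (build GRCm38.p6, 250 bases before to 50 bases after a transcript start) were found for 7 of the 10 genes, with 8 windows in all. The 4 windows printed here are those of members that hold a letter match other than a CCAAT box, and they contrast a pair of ring genes with a pair of regulators. Capitals mark matches, on either strand, to TTTGAA or TTCGAA (letters of the cell cycle homology region used by late cell cycle genes), to CCAAT, and to TTTCCCGC or TTTGGCGC (letters of E2F sites). No matches overlap. In the annotation the Sgo1, Stag1 and Espl1 genes begin upstream of the starts used here.
Sgo1, chr17:53689266-53689565, minus strand: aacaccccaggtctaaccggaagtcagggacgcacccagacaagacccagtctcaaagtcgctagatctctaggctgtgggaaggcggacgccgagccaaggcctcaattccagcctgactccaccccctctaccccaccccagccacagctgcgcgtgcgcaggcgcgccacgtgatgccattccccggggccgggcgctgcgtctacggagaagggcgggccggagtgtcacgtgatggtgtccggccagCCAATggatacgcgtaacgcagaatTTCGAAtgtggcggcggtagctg
Espl1, chr15:102296043-102296342, plus strand: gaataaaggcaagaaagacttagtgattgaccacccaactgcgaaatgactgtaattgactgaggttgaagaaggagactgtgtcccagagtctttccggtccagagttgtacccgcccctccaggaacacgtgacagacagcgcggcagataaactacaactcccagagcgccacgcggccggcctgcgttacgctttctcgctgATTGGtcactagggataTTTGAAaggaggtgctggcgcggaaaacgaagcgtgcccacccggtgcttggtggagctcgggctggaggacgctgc
Smc1a, chrX:152016178-152016477, plus strand: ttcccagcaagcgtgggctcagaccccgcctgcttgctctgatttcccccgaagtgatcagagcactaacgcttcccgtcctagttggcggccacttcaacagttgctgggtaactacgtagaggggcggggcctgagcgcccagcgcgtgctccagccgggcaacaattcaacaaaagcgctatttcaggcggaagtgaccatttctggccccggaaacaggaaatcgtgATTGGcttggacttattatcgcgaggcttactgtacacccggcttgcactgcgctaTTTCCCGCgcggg
Stag1, chr9:100643198-100643497, plus strand: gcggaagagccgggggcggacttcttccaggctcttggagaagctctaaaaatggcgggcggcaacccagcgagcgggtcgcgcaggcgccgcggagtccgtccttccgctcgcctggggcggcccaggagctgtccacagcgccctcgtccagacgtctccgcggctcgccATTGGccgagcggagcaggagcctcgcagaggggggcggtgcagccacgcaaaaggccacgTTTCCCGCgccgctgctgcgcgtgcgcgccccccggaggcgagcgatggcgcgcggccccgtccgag
The Espl1 window holds TTTGAA beginning 27 bases before the start and a CCAAT box in reverse beginning 44 bases before it. The Sgo1 window holds TTCGAA, which reads the same on both strands, beginning 27 bases after the start, and a CCAAT box beginning 2 bases after it. Both ring windows hold TTTCCCGC, 37 bases after the start in Smc1a and 17 bases before it in Stag1, and each also holds a reverse CCAAT box. Over 32851 promoter windows of this length, TTTGAA was found in 17.9%, TTCGAA in 1.56%, CCAAT in 37.4%, TTTCCCGC in 1.07% and TTTGGCGC in 0.514%. The windows of Smc3 and Pttg1 held none of these letters, and those of Sgo2a held CCAAT boxes. A letter match is a description of the window and no evidence of binding.

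Of the 10 genes, 6 rose in GFP-positive cells (3 ring genes and 3 regulators) and none fell by limma, 0 at an unadjusted p below 0.05, where 1.55% of all genes rose and 0.115% fell. The median measured difference was 3.17 for the 5 regulators, or 2.61 with Esco2, Sgo1 and Sgo2a at their bounds, and 0.72 for the 5 ring genes, against -0.03 over all genes. In 9 of the 10 every GFP-positive array lay above every GFP-negative array, which held for 6.82% of all genes, and Stag2 was the exception. The division between ring and regulators was not complete. Esco2, Sgo1 and Sgo2a differed by more than any ring gene, also at their bounds. The measured differences of Espl1 and Pttg1 were smaller than those of Rad21 and Stag1, and that of Espl1 was also smaller than those of Smc1a and Smc3.

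**Figure D1:**
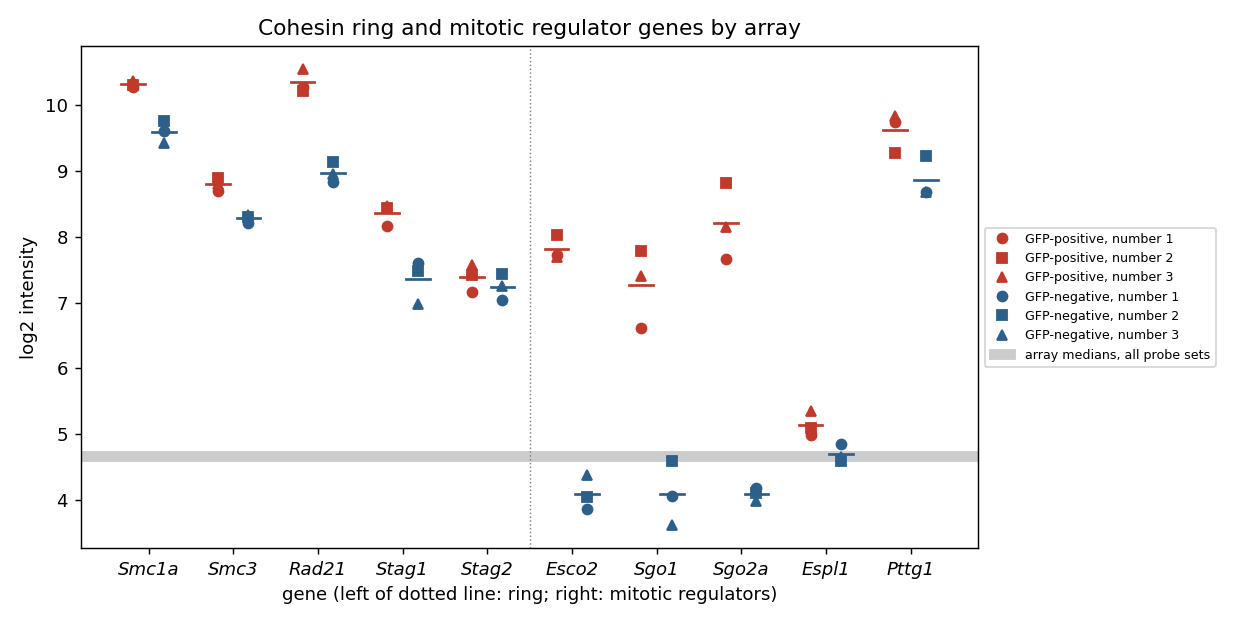
Log2 intensity of each gene in the 3 GFP-positive arrays (red) and the 3 GFP-negative arrays (blue), with marker shape for the replicate number, a bar for the group mean and a grey band for the array medians. Esco2, Sgo1 and Sgo2a lie in or below the band in GFP-negative arrays and between 6.62 and 8.81 in GFP-positive arrays, while the ring genes are well above the band in both groups; heights of different genes are not comparable.

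Among the ring genes, Rad21 differed most. Rad21 (probe set 10428561, chromosome 15), the subunit that separase cuts, stood at 10.27, 10.20 and 10.54 in GFP-positive arrays 1 to 3 and at 8.83, 9.13 and 8.95 in GFP-negative arrays. The groups did not overlap, and the lowest GFP-positive value lay 1.08 above the highest GFP-negative one. The rise was 2.58-fold (log2 difference 1.37 ± 0.15, limma adjusted p = 0.00089, or 0.0025 with the replicate number as a block), and Rad21 passed in each of 15 alternative fits, with differences between 1.27 and 1.52.

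Stag1 (probe set 10588154, chromosome 9), one of the alternative subunits that bind RAD21, stood at 8.16, 8.43 and 8.46 in GFP-positive arrays and at 7.60, 7.47 and 6.98 in GFP-negative arrays. GFP-negative array 3 was the lowest, and the groups did not overlap. The rise was 2.002-fold (1.002 ± 0.19, limma adjusted p = 0.026). Stag2 (probe set 10599377, chromosome X), its counterpart, stood at 7.16, 7.41 and 7.57 in GFP-positive arrays and at 7.03, 7.43 and 7.25 in GFP-negative arrays. These groups overlapped, and the difference of 0.14 ± 0.17 did not pass (limma adjusted p = 0.90). Its 95% interval ran from -0.23 to 0.51, so a rise above 1.43-fold lay outside it. Stag1's difference was larger than that of Stag2 by 0.86 ± 0.25, with no overlap between groups, at p = 0.1 in a two-sided exact permutation test, the smallest that 3 against 3 arrays allow.

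Smc1a (probe set 10602599, chromosome X), one of the ring's ATPases, stood at 10.27, 10.30 and 10.36 in GFP-positive arrays and at 9.60, 9.75 and 9.42 in GFP-negative arrays. The GFP-positive arrays lay close together and above all GFP-negative ones. The rise was 1.65-fold (0.72 ± 0.14, limma adjusted p = 0.035), but with the replicate number as a block the adjusted p was 0.079. Its partner Smc3 (probe set 10463951, chromosome 19), the subunit that ESCO2 acetylates, stood at 8.70, 8.89 and 8.79 in GFP-positive arrays and at 8.21, 8.29 and 8.33 in GFP-negative arrays. The groups did not overlap, yet the difference of 0.52 ± 0.13 did not pass over all genes (limma adjusted p = 0.13). Its unadjusted 95% interval ran from 0.22 to 0.81. Of simulated differences of 0.5 in 50 randomly drawn genes 8% were called, a rate that was not set to the spread of Smc3. Rad21's difference was larger than that of Smc3 by 0.85 ± 0.15 (two-sided exact permutation p = 0.1, groups not overlapping).

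The calls of Stag1 and Smc1a were less stable than that of Rad21. Stag1 kept its call in 8 of 15 alternative fits, with adjusted p up to 0.12, and lost it without GFP-negative array 2 or 3 (0.053 and 0.060) or GFP-positive array 2 or 3 (0.095 and 0.12). Smc1a kept its call in 6 of 15, and without GFP-negative array 1 or 3 or any 1 GFP-positive array its adjusted p lay between 0.094 and 0.16. Without GFP-negative array 3, GFP-positive array 2 or GFP-positive array 3, 1 of the 5 ring genes passed in place of 3. The differences themselves stayed between 0.82 and 1.12 for Stag1 and between 0.63 and 0.80 for Smc1a.

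Esco2, Sgo1 and Sgo2a, the regulators that establish or protect cohesion, rose strongly. Sgo2a (probe set 10346365, chromosome 1), which in the mouse is known above all for protecting centromeric cohesin in meiosis, stood at 7.65, 8.81 and 8.14 in GFP-positive arrays and at 4.19, 4.12 and 3.996 in GFP-negative arrays. The GFP-negative values were close together and below the array medians. The rise was at least 11.7-fold (measured difference 4.10 ± 0.25, limma adjusted p = 1.4e-05). Esco2 (probe set 10420877, chromosome 14), the SMC3 acetyltransferase of S phase, stood at 7.72, 8.02 and 7.69 in GFP-positive arrays and at 3.87, 4.05 and 4.39 in GFP-negative arrays. GFP-negative cells again had levels under the medians, and the rise was at least 8.88-fold (measured difference 3.71 ± 0.17, limma adjusted p = 2.2e-06).

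Sgo1 (probe set 10451805, chromosome 17), the shugoshin that guards centromeric cohesion in mitosis, stood at 6.62, 7.78 and 7.41 in GFP-positive arrays and at 4.07, 4.60 and 3.62 in GFP-negative arrays. Number 2 was the highest and the spread was wide in both groups, yet the lowest GFP-positive array lay 2.02 above the highest GFP-negative one. The rise was at least 6.09-fold (measured difference 3.17 ± 0.31, limma adjusted p = 0.00040). Esco2, Sgo1 and Sgo2a passed in each of 15 alternative fits. Their folds are lower bounds, so the order among these 3 genes is not settled.

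Espl1 and Pttg1, the separase and securin genes of anaphase, did not pass. Espl1 (probe set 10427166, chromosome 15) stood at 4.99, 5.09 and 5.35 in GFP-positive arrays and at 4.86, 4.60 and 4.67 in GFP-negative arrays. All 6 values lay near the array medians, and the groups were adjacent without overlap. The difference was 0.43 ± 0.15 (limma adjusted p = 0.37), with a 95% interval from 0.09 to 0.77 or 1.07-fold to 1.71-fold. Espl1 passed in none of 15 alternative fits with limma, and its unadjusted p was 0.018.

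Pttg1 (probe set 10385325, chromosome 11) was well above the medians throughout, at 9.74, 9.27 and 9.82 in GFP-positive arrays and at 8.67, 9.22 and 8.68 in GFP-negative arrays. The arrays of number 2 were the lowest GFP-positive and the highest GFP-negative one, and between them Pttg1 differed by 0.05, against 1.07 and 1.15 in numbers 1 and 3. Over all arrays the difference was 0.75 ± 0.21 (95% interval 0.29 to 1.21, limma adjusted p = 0.17). Without both arrays of number 2 it was 1.11 (limma adjusted p = 0.016), and with array weights 0.87 (adjusted p = 0.035). The difference of Pttg1 was larger than that of Espl1 by 0.32 ± 0.29, with groups overlapping (two-sided exact permutation p = 0.3). There were 5 such comparisons of gene pairs, counting those of acetyltransferases and APC/C activators given below. With a smallest possible p of 0.1, none of them could pass a threshold of 0.05, and their adjusted p lay between 0.125 and 0.3.

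**Figure D2:**
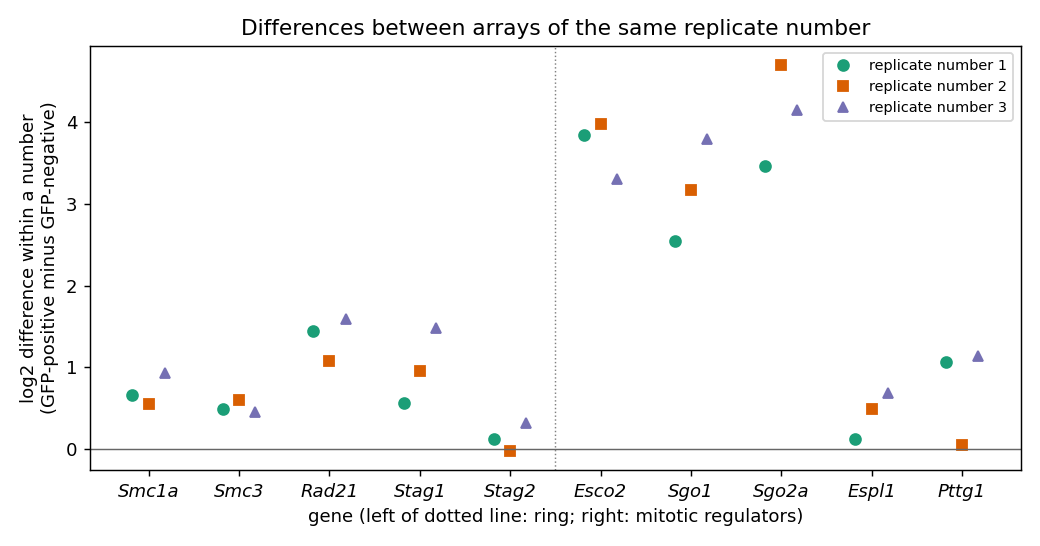
Measured log2 difference, GFP-positive minus GFP-negative, between the 2 arrays of each replicate number, for the 5 ring genes and the 5 regulators. Pttg1 is at 0.05 in number 2 and at 1.07 and 1.15 in the others, and Esco2, Sgo1 and Sgo2a lie between 2.55 and 4.69 in every number.

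Within replicate numbers the contrast between the medians held in each. The median measured difference of the 5 regulators was 2.55, 3.17 and 3.31 in numbers 1, 2 and 3, or 1.98, 3.17 and 2.67 with bounds. That of the 5 ring genes was 0.57, 0.60 and 0.94. The contrast did not hold for every regulator. Espl1 differed by 0.13, 0.49 and 0.68, below the ring median in each number, and Pttg1 by 0.05 in number 2. Number 2 is set apart by sex-linked genes, with Xist at 9.80 in its GFP-positive and 9.03 in its GFP-negative array and between 3.73 and 4.04 in the other 4 arrays. Smc1a and Stag2 are X-linked, and their differences in number 2 were 0.55 and -0.02, against 0.67 and 0.94 for Smc1a and 0.13 and 0.32 for Stag2 in numbers 1 and 3. Smaller differences in number 2 were not confined to X-linked genes. Rad21 (1.08 against 1.44 and 1.59) and Pttg1, both autosomal, were also lowest there, while Smc3, Esco2 and Sgo2a were highest there. With 1 such number, sex cannot be told apart from anything else particular to number 2.

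Other genes of the cohesin cycle were set beside these. Of 8 genes for loading, release and maintenance of cohesin, none passed by limma, and the median difference was 0.30. By limma 2 had an unadjusted p below 0.05 (Cdca5 and Pds5a), but the share of all genes below that value was not counted. The largest difference among the 8 genes was that of Cdca5, which encodes sororin, the protein that stabilises acetylated rings. Cdca5 stood at 6.50, 5.47 and 6.62 in GFP-positive arrays and at 4.36, 4.29 and 5.41 in GFP-negative arrays, without overlap (measured difference 1.51 ± 0.36, limma adjusted p = 0.093, or 0.0059 with the replicate number as a block). GFP-negative arrays 1 and 2 lay below their medians for Cdca5. With these values raised to the medians, its differences in numbers 1 and 2 were 1.87 and 0.87, against 2.14 and 1.18 as measured. The loader genes Nipbl (0.16 ± 0.18) and Mau2 (-0.25 ± 0.22), the release factor gene Wapl (0.27 ± 0.14) and the Pds5a and Pds5b genes (0.34 ± 0.15 and 0.39 ± 0.21) had adjusted p of at least 0.56 by limma. Esco1, which encodes another acetyltransferase of SMC3, had 2 probe sets, of which only the one with the higher mean is described here. Esco1 differed by -0.12 ± 0.28 on it (limma adjusted p = 0.96), with groups overlapping. With Esco2 raised to the array medians, its difference was larger than that of Esco1 by at least 3.27, without overlap between groups (two-sided exact permutation p = 0.1).

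Of 11 kinase, chromosomal passenger and APC/C genes that act on shugoshin, cohesin or separase, 9 rose and none fell, where 1.55% of all genes rose and 0.115% fell. Their median measured difference was 2.66, or 2.49 with the 4 genes under the medians in GFP-negative cells at their bounds. Cdk1, the mitotic kinase, rose 22.7-fold (4.51 ± 0.17), and Birc5, which encodes the chromosomal passenger survivin, rose 10.1-fold (3.33 ± 0.16). Bub1, whose kinase marks centromeres for shugoshin, rose at least 8.93-fold (measured difference 3.59 ± 0.18), and as a bound this gives it no place relative to Birc5. Each of these 3 had a limma adjusted p of at most 3.8e-06. Cdc20, the APC/C activator of anaphase, was 6.58-fold higher (2.72 ± 0.17, limma adjusted p = 1.3e-05), while Fzr1, the activator of mitotic exit and G1, averaged 5.42 ± 0.09 in GFP-positive arrays, against 5.42 ± 0.15 in GFP-negative arrays (SD, n = 3 each). The difference of Cdc20 was larger than that of Fzr1 by 2.72 ± 0.21 (two-sided exact permutation p = 0.1, groups not overlapping). Cdc27, an APC/C core subunit gene, did not pass (0.92 ± 0.20, limma adjusted p = 0.061).

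**Figure D3:**
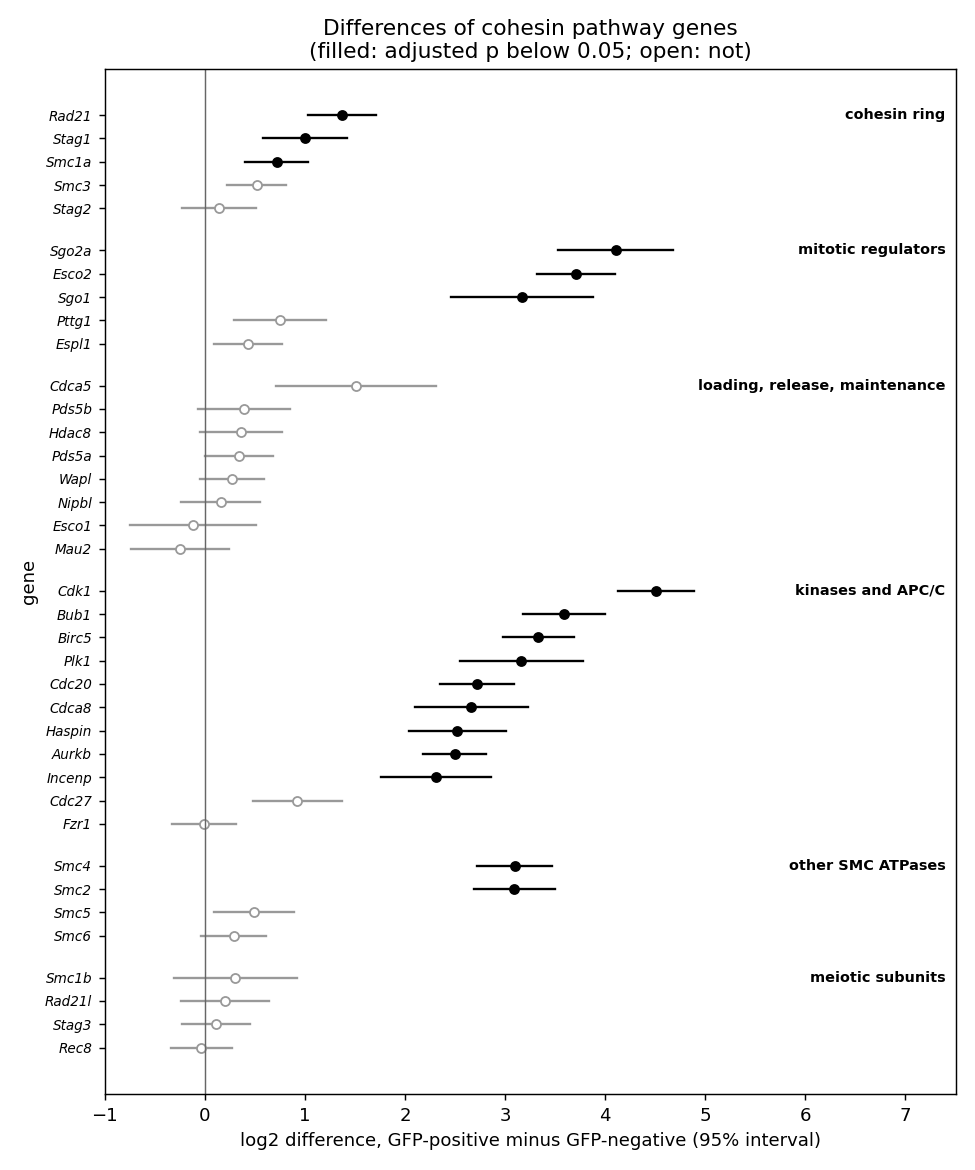
Measured log2 difference, GFP-positive minus GFP-negative, with its unadjusted 95% interval, for the 10 genes and 27 further genes of the cohesin cycle and its relatives, 3 arrays per group, filled where the adjusted p was below 0.05. The ring genes lie between 0.14 and 1.37, and among the regulators Sgo2a, Esco2 and Sgo1 lie above 3 while Pttg1 and Espl1 lie below 1.

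The cohesin ATPases differed less than their condensin relatives. Smc2 and Smc4, the ATPases of the condensin complex that compacts mitotic chromosomes, rose 8.53-fold and 8.55-fold (3.09 ± 0.18 and 3.10 ± 0.17, limma adjusted p = 9.8e-06 and 6.5e-06), against 1.65-fold for Smc1a and 1.43-fold for Smc3. The upper 95% limits of the cohesin ATPases, 1.03 and 0.81, lay below the lower limits of the condensin ATPases, 2.69 and 2.72. Smc5 and Smc6, of another SMC complex that acts in DNA repair, did not pass (0.49 ± 0.18 and 0.29 ± 0.14, limma adjusted p = 0.41 and 0.64). Of the 4 meiotic cohesin subunit genes none passed by limma, 0 at an unadjusted p below 0.05, and the largest difference was that of Smc1b (0.31 ± 0.27, limma adjusted p = 0.87). Smc1b, Rec8, Stag3 and Rad21l were below the array medians in all 6 arrays, as was Sgo2b, the paralog of Sgo2a with its own probe set (1.92 ± 0.09 in GFP-positive arrays, against 1.76 ± 0.07 in GFP-negative arrays, SD, n = 3 each).

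The genes whose profiles over the 6 arrays lay nearest to those of the 6 risen genes were found by the root mean square distance between log2 values centred on each gene's own mean. Nearest to Esco2 were Nusap1, Ttk and Cenpf (distances 0.17 each). Nearest to Sgo2a were Prr11, Cenpe and Shcbp1 (0.17, 0.20 and 0.26), and nearest to Sgo1 were Ddias, Cip2a and Kif18a (0.21, 0.26 and 0.29). For the ring genes, Haus6, Rad54l and Reep4 lay nearest to Rad21 (0.09, 0.09 and 0.10), Cdc27, Itgb3bp and Arhgap18 to Stag1 (0.06, 0.10 and 0.11), and Mdm4, H2bc8 and Nup133 to Smc1a (0.04, 0.05 and 0.05). Distances grow with the size of the difference and the spread, so they rank genes within a member and not between members.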

How the data were processed

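The authors deposited intensities, 1 for each probe set on each array, processed with RMA, per the submitters' processing notes, which name no version or settings. The intensities are on a linear scale (1.62 to 15836, array medians 24.3 to 26.7), so log2 was taken and nothing else was normalized. Per the labels' protocols, 10 ng of total RNA per sample was amplified and labelled with biotin. No detection calls were used, and precision is limited by the 3 arrays per group.

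Of 35512 probe sets, 21789 had 1 gene symbol in the platform annotation, 1621 several and 12102 none. Symbols were updated through Entrez identifiers for 21698 of them (GRCm38.p6 gene table, names and chromosomes only). Where a gene had several probe sets, the one with the highest mean stood for it, giving 19938 genes, and no filter on low values was used. All 10 members also passed the filter tried as an alternative, which kept 13292 genes. That filter used the mean over all 6 arrays. Esco2, Sgo1 and Sgo2a, with GFP-negative means of 4.10 each, passed it only through their GFP-positive arrays, so their passing supports nothing.

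Groups were compared with limma 3.58.1 in R 4.3.3 (lmFit, eBayes, 4 residual and 5.44 prior degrees of freedom), two-sided at an adjusted p of 0.05. On simulated data for this comparison with 19938 genes, differences of 0.5, 1, 2 and 3 were called in 8%, 86%, 100% and 100% of 50 changed genes each, and 5.77% of calls were false. The labels call the arrays biological replicates. Per the design text the fractions share 3 livers, and Xist and Eif2s3y set number 2 apart from the others in both fractions. No label ties a number to a mouse, and these genes do not separate numbers 1 and 3. Same-numbered arrays, after subtraction of group means, correlated by 0.20, 0.06 and -0.05 in numbers 1, 2 and 3, and the block was run as an alternative, with its value given wherever it changes a call.

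The members, gene lists, gene pairs, motifs and tests were chosen with earlier results of these data known, so no p over a list is given. Named were all 10 members, of each further list the 3 called genes with the largest difference or else the gene with the largest difference, and the 3 nearest profiles of each called member (clone and predicted names left out). Mau2, Nipbl, Wapl, Pds5a, Pds5b, Esco1, Cdc20, Fzr1, Cdc27, Smc5, Smc6, Rec8, Stag3, Rad21l, Sgo2b and Clec4f were named after their values were seen, and so was the choice of the 5 gene pairs. Alternatives were quantile normalization, centring on array medians, a filter on low means, the mean of a gene's probe sets, each probe set alone, an intensity trend, array weights, the block, leaving out arrays, and other thresholds. Tables and plots used pandas 2.3.3 and matplotlib 3.10.9 in Python 3.11.15.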

Additional observations from a re-analysis of the deposited data

How the results depend on the processing

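All 10 members kept the sign of their differences in each of 15 alternative fits, but most of these outcomes were fixed in advance. The filter, the probe set mean, each probe set alone, the intensity trend and the block leave a member's difference unchanged by design. Leaving out arrays cannot reverse the sign for the 9 members whose groups do not overlap. Rad21, Esco2, Sgo1 and Sgo2a passed in all 15 fits, Smc3, Stag2 and Espl1 in none, Stag1 in 8, Smc1a in 6 and Pttg1 in 2. Of the 5 ring genes, 3 with all arrays, 1 passed after centring on array medians, with each probe set tested alone, without both arrays of number 2 and at a threshold of 0.01, and 1 to 2 passed when 1 array was left out. The median difference of the ring genes (0.72) was 0.80 without number 2 and 0.63 to 0.80 without 1 array. The median measured difference of the regulators (3.17) was 2.89 with array weights and 2.92 to 3.49 without 1 array. The count of lower genes over the whole table (23) was 38 after quantile normalization, 13 after centring, 6 with each probe set tested alone, 53 with array weights, 9 without number 2, 3 and 46 at thresholds of 0.01 and 0.10, and 6 to 29 without 1 array. With the replicate block 5 of the 10 members passed, Smc1a being lost (0.72 ± 0.16, limma adjusted p = 0.079), and 12 of the 27 further genes in place of 11, the gain being Cdca5. Over all 19938 genes 327 rose and 28 fell with the block. The block changed no other call among these 37 genes. The shared livers and the sex-linked genes of number 2 bear on the pairing, while over all genes the GFP-positive array correlated best with its own GFP-negative array in 1 of 3 numbers. The causes of these shifts were not tested. The GFP-negative levels of Esco2, Sgo1 and Sgo2a lie below the array medians, so the sizes of these differences are known only as lower bounds.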
